A study of Mus musculus with 74 samples.

Results

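The genes described here encode the collagens, the laminins and the integrins, that is, the main chains of the extracellular matrix and the receptors through which cells hold on to it. They were taken by symbol from the gene table of a mouse embryonic stem (ES) cell study: Col, a number, a and a number for collagen chains, Lama, Lamb or Lamc and a number for laminin chains, and Itga or Itgb followed by a number or by M, L, V, X, E or D for integrin chains. This gave 86 of 37620 genes, with 43 collagens, 11 laminins and 32 Itga or Itgb symbols. Of these 32, 6 are not receptor chains (Itgb1bp1, Itgb1bp2, Itgb1bp3, Itgb2l, Itgb3bp and Itgbl1), which leaves 26 integrin chains. The rule used symbols alone, though it was set with earlier results of these data known.

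Collagens are trimers of α chains. Collagen IV forms the network of basement membranes, the fibrillar collagens (I, II, III, V, XI, XXIV, XXVII) form fibrils, fibril-associated collagens decorate them, and transmembrane collagens sit in the cell surface. Laminins are trimers of 1 α, 1 β and 1 γ chain, and the α chain sets which receptors the trimer binds: laminin-111 (Lama1, Lamb1, Lamc1) and laminin-511 (Lama5, Lamb1, Lamc1) are the laminins of the early embryo and of cultured ES cells. Integrins pair 1 α with 1 β chain. Those with α3, α6 or α7 bind laminins, those with α1, α2, α10 or α11 bind collagens, those with α5, α8, αv or αIIb bind the Arg-Gly-Asp motif of fibronectin and its relatives, and α4 and α9 pair with β1 or, for α4, with β7.

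All RNA-seq libraries came from E14Tg2a ES cells or derived lines, grown on gelatine in serum with 10 ng/mL of LIF, the cytokine that holds them undifferentiated, unless LIF was withdrawn. SunTag cells carry a doxycycline (Dox) inducible dCas9 bearing 10 GCN4 epitopes together with scFv-GFP-VP64, a single-chain antibody fused to an activator that binds those epitopes, and Dox at 1 μg/mL therefore switches on the gene that a guide RNA targets. SunTag Nanog cells carry a guide to the Nanog promoter, and SunTag NanogOtx cells, made from them, carry in addition a guide to the Otx2 promoter. In both cases 1 clone was derived from each of the parental clones C1 and C2, so every SunTag group holds the same 2 clones, picked for good induction, and stands for these clones only. Both kinds of cell were grown with or without LIF and with or without Dox for 3 days. No RNA-seq sample is of SunTag cells without a guide. Dox itself, the induced SunTag proteins and the induction of the target gene therefore cannot be told apart. The SunTag Nanog groups held 3 libraries for +LIF/-Dox, 2 for +LIF/+Dox, 3 for -LIF/-Dox and 3 for -LIF/+Dox, and the SunTag NanogOtx groups held 3, 4, 4 and 4 in the same order. 44iN cells lack endogenous Nanog and express it from a Dox-driven transgene: 2 libraries were made with Dox, 2 after 24 h without it and 2 from cells cultured long-term in its absence, and 3 libraries of unmodified Tg2a cells in FCS were deposited beside them, all with LIF. This makes 35 libraries with 6107512 to 92244655 estimated counts each (median 29298745). Nanog and Otx2 moved as the labels say: Nanog rose from a mean of 24924 to 84519 normalised counts with Dox in SunTag Nanog cells with LIF and from 5916 to 51805 without LIF, and Otx2 rose from 952 to 3509 with Dox in SunTag NanogOtx cells with LIF and from 4074 to 7173 without. ES cell markers were present in every group, with a summed level of 34065 to 202463 normalised counts per library over 9 genes. These are bulk libraries, in which fewer cells of a type and less RNA per cell cannot be told apart.

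Of the 86 genes, 76 reached 10 normalised counts in at least 1 library and 69 passed the filter for low counts in at least 1 model. The 17 never tested included Col4a3 and Col4a4, the collagen IV chains of the mature kidney, with at most 5.62 and 11.2 normalised counts in any library, and Itgb2l was never counted. A gene that passed the filter through 1 group alone was one that differed by construction, so the counts given here are of the tested genes and not of all 86. Of the tested members 7 of 66 in SunTag Nanog and 7 of 67 in SunTag NanogOtx cells were of this kind, among them Itgb8 in both lines, through -LIF/-Dox, and Col14a1 in the second, through -LIF/+Dox. Of the 69, 61 passed an adjusted p of 0.05 in at least 1 comparison. The same share over all genes was not computed. LIF withdrawal in SunTag NanogOtx cells alone called 24.6% of all genes tested higher and 25.2% lower. The 61 are therefore not read as a trait of these genes.

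Levels of different genes can be compared only per length. In SunTag Nanog cells with LIF and without Dox the highest level was that of Lamc1, the γ1 chain common to both early laminins, with 1634 ± 266 normalised counts per kb of exon (SD, n = 3). Itgb1, the β chain shared by most matrix integrins, followed with 1036 ± 350 (SD, n = 3), and Col18a1, a basement membrane collagen, with 692 ± 218 (SD, n = 3). Itga5 (468 ± 162), Itga6 (443 ± 156), Lamb1 (351 ± 61.9) and Lama1 (317 ± 75.7) came next and did not differ from their neighbours beyond the spread. Without LIF the order in these cells was led by Itgb1 (1678 ± 210) and Col18a1 (1490 ± 243), with Lamc1 at 774 ± 167 and Lama5 at 547 ± 132 (SD, n = 3 each). Collagens of all kinds took 0.008 to 0.0674% of the counts in the 12 group means, laminins 0.0465 to 0.129% and integrin chains 0.0467 to 0.0725%. Long-term 44iN cells and Tg2a cells held the highest laminin shares, 0.129 ± 0.0314% (SD, n = 2) and 0.12 ± 0.0222% (SD, n = 3).

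**Figure D1:**
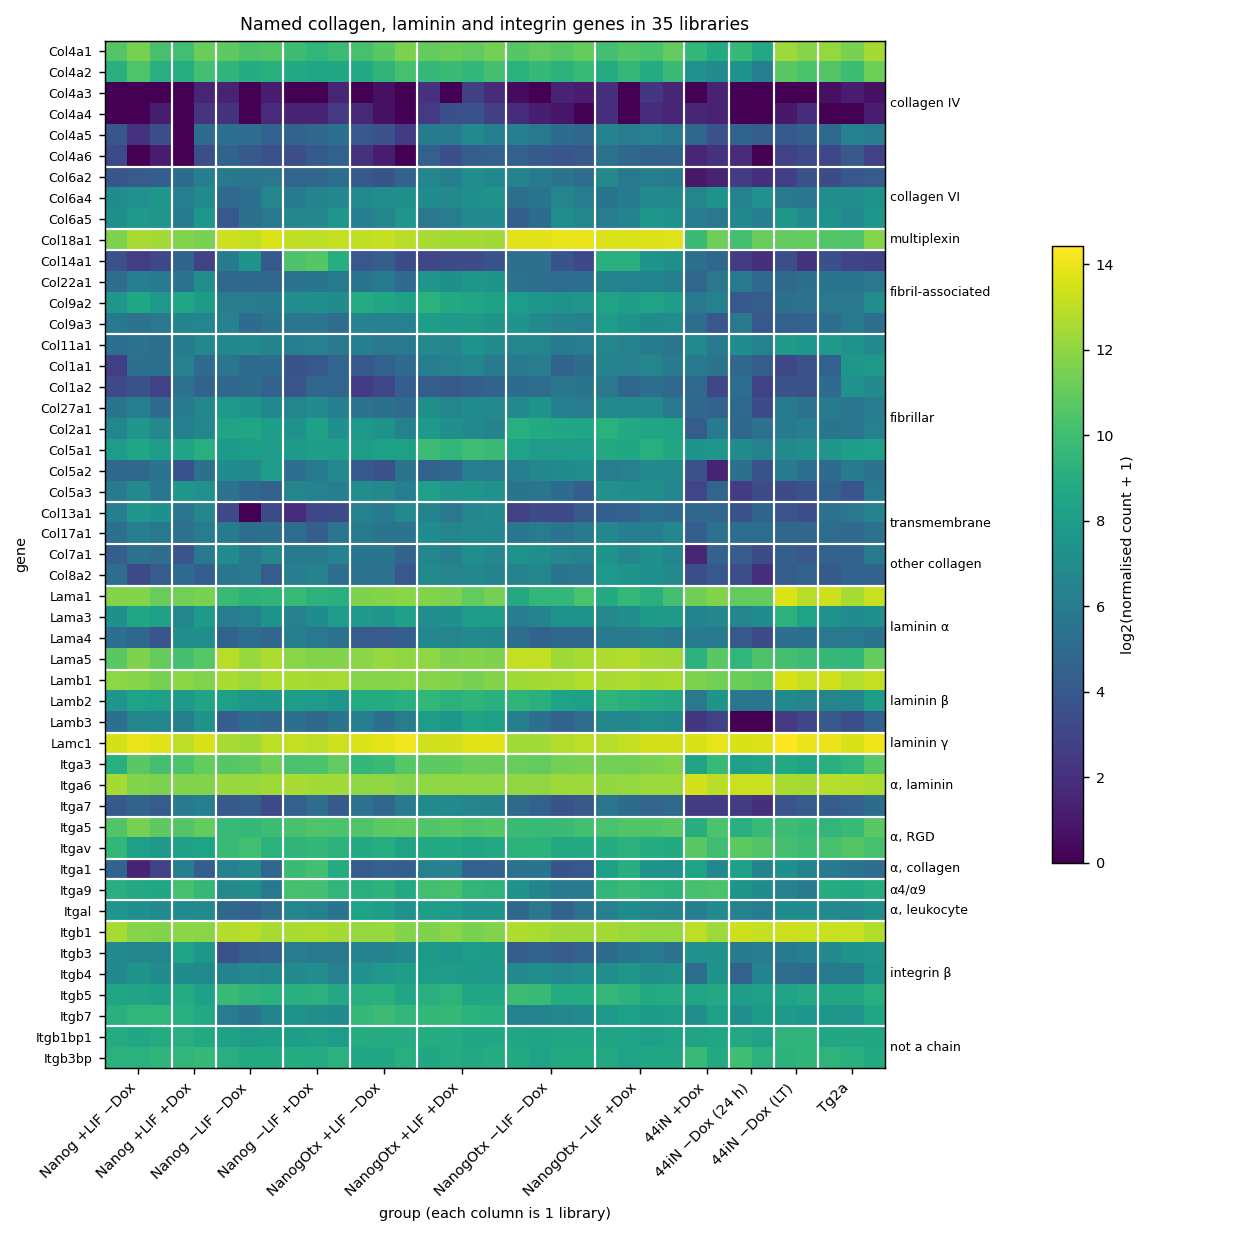
Heat map of log2(normalised count + 1) for 49 genes named by rule (rows, by subfamily) in each of the 35 libraries (columns, by group). Lamc1 and Itgb1 are high in every library, Lama1 and Itgb7 are lower in all SunTag libraries without LIF than in those with LIF, and Col14a1 holds 146 to 1598 normalised counts in the SunTag libraries without LIF and with Dox.

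The most abundant collagen IV pair, Col4a1 and Col4a2, lies head to head, which is why its promoter sequence is shown first. In the mm9 build Col4a1 (ENSMUSG00000031502) runs on the minus strand of chromosome 8 from 11198423 to 11312826 and Col4a2 (ENSMUSG00000031503) on the plus strand from 11312805 to 11449287, so that the 2 annotated genes overlap at their 5′ ends. Both windows, from 250 bases before to 50 after the RefSeq start, are given 5′ to 3′ on the gene's own strand in the GRCm38.p6 build, at chr8:11312777-11313076 (minus) for Col4a1 and chr8:11312555-11312854 (plus) for Col4a2. Capitals mark the 78 bases that belong to both windows.
Col4a1: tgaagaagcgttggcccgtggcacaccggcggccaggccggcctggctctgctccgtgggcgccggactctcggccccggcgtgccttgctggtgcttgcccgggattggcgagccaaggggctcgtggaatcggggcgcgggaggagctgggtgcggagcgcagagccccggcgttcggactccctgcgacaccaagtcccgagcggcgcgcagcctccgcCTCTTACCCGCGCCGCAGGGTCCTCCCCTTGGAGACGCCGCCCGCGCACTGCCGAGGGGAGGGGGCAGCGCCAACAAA
Col4a2: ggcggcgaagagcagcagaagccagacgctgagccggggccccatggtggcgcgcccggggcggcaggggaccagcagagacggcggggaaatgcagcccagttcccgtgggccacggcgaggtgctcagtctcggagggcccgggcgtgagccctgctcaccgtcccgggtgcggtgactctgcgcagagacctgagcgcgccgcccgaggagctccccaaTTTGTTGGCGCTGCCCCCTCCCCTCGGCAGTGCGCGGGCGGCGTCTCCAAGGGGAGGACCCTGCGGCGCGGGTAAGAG
G and C made up 74.0% of the Col4a1 window and 73.7% of the Col4a2 window, against a median of 52.7% over 32851 RefSeq windows of the same length. Searched on both strands, the Col4a1 window held 1 GC box (GGGCGG) and 1 CCAAT box (CCAAT), and the Col4a2 window held 3 and 1. Of all windows 35.66% held a GC box and 37.41% a CCAAT box, and neither Col4a window held TATAAA, which 13.62% of all windows did. These matches describe the letters and do not identify bound sites. The 2 genes' levels were close to proportional: over the 35 libraries Pearson's r of log2(normalised counts per kb + 1) was 0.96, as a description across libraries that share groups and clones. The ratio of Col4a1 to Col4a2 per kb was 2.03 to 2.77 in the means of 10 groups and was higher in the other 2, 4.15 ± 0.734 in 44iN cells with Dox and 4.96 ± 0.57 after 24 h without it (SD, n = 2 each). The libraries were stranded and the authors ran RSEM with a strand setting, so reads of the overlap were assigned by strand.

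The first question is what withdrawal of LIF did to these genes in cells without Dox. Basement membrane chains went different ways: in both SunTag lines Lama1 fell more than 4-fold while Lama5 rose, Lamc1 fell more than 2-fold, and Col4a1 and Col4a2 were not called. Several fibrillar collagen chains were higher (Col2a1, Col5a2, Col27a1), and so were Itgb1 and Itga4, while Itgb7, Itga9, Itgb3, Itgal and Itga5 fell. In SunTag Nanog cells 66 of the genes were tested, of which 19 were higher and 19 lower without LIF, beside 20.2% higher and 21.3% lower of all 15624 genes tested. Of 67 genes tested in SunTag NanogOtx cells 22 were higher and 19 lower, beside 24.6% and 25.2% of 15609 genes. The median log2 fold change of the tested members was 0.13 and -0.07, against -0.05 and -0.012 over all genes. With members at 3 or fewer counts in every library of a group set to that floor, the first median was 0.11. Some genes were tested only through groups without LIF, which favours a rise. Among them were Itgb8 in both lines and Col24a1, Col4a5 and Col4a6 in SunTag Nanog cells. Counts and medians that hold such genes are in that part a description.

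Lama1, the α chain of laminin-111 (chr17:68046605-68171985, mm9), had 3481, 3381 and 2186 normalised counts in the SunTag Nanog libraries with LIF and 846, 649 and 696 in those without. Its level in SunTag NanogOtx cells was 3157, 3491 and 3708 with LIF and 419, 758, 745 and 1235 without. No library without LIF came near any library with it, and the log2 fold change was -2.06 ± 0.22 (SE, adjusted p = 3.74e-05) in the first line and -2.17 ± 0.32 (SE, adjusted p = 5.58e-05) in the second. Lama5, the α chain of laminin-511 (chr2:179911078-179960564), had 1703, 3146 and 2099 normalised counts with LIF and 7600, 4628 and 6483 without in SunTag Nanog cells. The SunTag NanogOtx libraries held 3860, 4615 and 4222 with LIF and 8729, 8839, 5373 and 5845 without. All libraries without LIF lay above those with it within each line, with log2 fold changes of 1.42 ± 0.25 (SE, adjusted p = 0.000928) and 0.73 ± 0.17 (SE, adjusted p = 0.00243).

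Per kb, Lama1 made up 57.84 ± 9.36% of the laminin α chain level with LIF in SunTag Nanog cells and 12.25 ± 1.58% without (SD, n = 3 each), and Lama5 36.92 ± 7.71% and 85.61 ± 1.81%. In SunTag NanogOtx cells the Lama1 share was 47.82 ± 1.43% with LIF (SD, n = 3) and 12.0 ± 6.15% without (SD, n = 4), and the Lama5 share 48.94 ± 2.20% and 85.83 ± 7.02%. The ranges of the Lama1 share did not overlap in either line, 51.81 to 68.62% against 11.07 to 14.05% and 46.38 to 49.23% against 5.37 to 19.65%. Lama3, an epithelial α chain, held 1.63 to 4.77% in these 4 group means and Lama2 and Lama4 at most 0.4%.

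**Figure D2:**
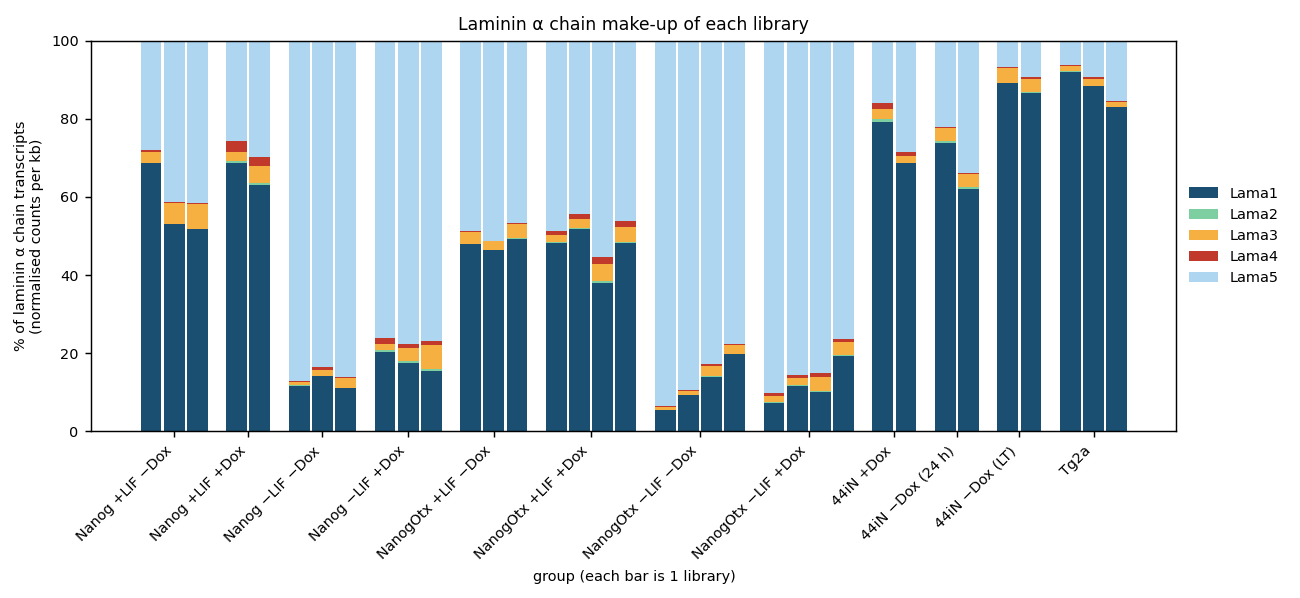
Share of each laminin α chain in the summed level of Lama1 to Lama5 per kb of exon, in percent, 1 stacked bar for each library. Lama1 takes 46.38 to 68.62% in the SunTag libraries with LIF and without Dox and 5.37 to 19.65% in those without LIF and Dox, where Lama5 takes 77.58 to 93.43%.

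The other laminin chains moved with less symmetry. Lamc1, the shared γ1 chain, had 11303, 15711 and 13533 normalised counts with LIF and 5981, 5282 and 7953 without in SunTag Nanog cells (log2 fold change -1.09 ± 0.21 SE, adjusted p = 0.00171). Lamc1 in SunTag NanogOtx cells had 12214, 14693 and 17915 with LIF and 5380, 5435, 6877 and 8145 without (-1.24 ± 0.19 SE, adjusted p = 7.43e-05). The groups did not overlap in either line. Lamb1, the shared β1 chain, rose by a log2 value of 0.72 ± 0.17 (SE, adjusted p = 0.00559) and 0.67 ± 0.09 (SE, adjusted p = 2.56e-05), so that the β1 and γ1 chains of the same trimers went opposite ways. Lamb2 was not called in either line (log2 fold changes -0.23 and -0.10, adjusted p = 0.53 and 0.773).

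In collagen IV the abundant pair was not called, and the minor pair was called in part. Col4a1 had 1513, 2796 and 1201 normalised counts with LIF and 1859, 1326 and 1496 without in SunTag Nanog cells, groups that overlapped, and its log2 fold change was -0.25 ± 0.33 (SE, adjusted p = 0.566). The value in SunTag NanogOtx cells was -0.15 ± 0.26 (SE, adjusted p = 0.661), and Col4a2 gave -0.53 (adjusted p = 0.282) and -0.07 (adjusted p = 0.865). These values leave room for changes of these chains within about 2 SE of the estimates. Col4a5, a chain of the second basement membrane network, had 14.1, 10.8 and 4.63 normalised counts with LIF and 74.6, 55.5, 33.3 and 25.6 without in SunTag NanogOtx cells, and Col4a6 had 3.35, 1.13 and 0 with LIF and 20.1, 15.8, 13.3 and 15.6 without. Both were called there (2.03 ± 0.41 SE, adjusted p = 0.000772, and 2.94 ± 0.47 SE, adjusted p = 0.000117). In SunTag Nanog cells Col4a5 was not called (1.85 ± 0.82 SE, adjusted p = 0.0915), and Col4a6 went from 3, 0 and 1 estimated counts to 30, 12 and 9 (adjusted p = 0.0446), a call kept in 4 of 11 refits with a single library left out, over which the adjusted p ran from 0.0135 to 0.156. Both chains passed the filter in SunTag Nanog cells only through groups without LIF, which favours a rise. Their values in that line are a description.

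Of the fibrillar chains tested, 6 of 10 were higher and 1 lower without LIF in SunTag Nanog cells, and 5 of 9 and 1 in SunTag NanogOtx cells, with medians of 1.36 and 1.17 on the log2 scale. The 10 include Col24a1, tested in SunTag Nanog cells only through -LIF/-Dox, where it averaged 18.6 normalised counts against 1.81 with LIF. In that part the first count and median are a description. Col2a1, the main chain of cartilage fibrils, had 99.1, 183 and 109 normalised counts with LIF and 344, 367 and 268 without in SunTag Nanog cells (1.30 ± 0.32 SE, adjusted p = 0.00737), and 209, 165 and 78.7 against 518, 452, 399 and 361 in SunTag NanogOtx cells (1.40 ± 0.32 SE, adjusted p = 0.00191). Both pairs of groups were separate. Col5a2, a chain of the regulatory fibril collagen V, rose by 2.27 ± 0.54 (SE, adjusted p = 0.00591) and 2.56 ± 0.53 (SE, adjusted p = 0.00101), while Col5a3, of the same collagen, fell by 1.24 (adjusted p = 0.0211, in 8 of 11 fits that left out a library, 0.0147 to 0.111) and 1.61 (adjusted p = 0.000347). Col5a1 was called in neither line. Among the others Col18a1, the precursor of endostatin and the most abundant collagen here, rose by 1.09 ± 0.21 (SE, adjusted p = 0.00193) and 0.77 ± 0.08 (SE, adjusted p = 2.47e-06), and Col13a1, a transmembrane collagen of adhesion sites, fell by 4.50 ± 0.73 (SE, adjusted p = 0.000589) and 3.18 ± 0.39 (SE, adjusted p = 1.03e-05), from 63.5 to 179 normalised counts with LIF to 0 to 15.6 without.

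Among the receptors the sharpest decrease was that of Itgb7, the β chain that pairs with α4 and αE on lymphocytes (chr15:102046426-102062366). It had 576, 729 and 730 normalised counts with LIF and 67.6, 44.0 and 91.0 without in SunTag Nanog cells, and 774, 945 and 759 against 80.6, 89.8, 94.9 and 114 in SunTag NanogOtx cells. The groups were far apart in both, with log2 fold changes of -3.34 ± 0.28 (SE, adjusted p = 6.9e-06) and -3.17 ± 0.16 (SE, adjusted p = 1.6e-09). Itga9, the α9 chain that pairs with β1 (chr9:118515808-118810121), had 552, 414 and 386 normalised counts with LIF and 107, 141 and 56.5 without in the first line and 552, 640 and 435 against 154, 91.1, 60.8 and 61.2 in the second. It fell by 2.16 ± 0.33 (SE, adjusted p = 0.000392) and 2.57 ± 0.30 (SE, adjusted p = 5.46e-06). Itgb3, the β3 chain of the αv and αIIb receptors (chr11:104469370-104531790), went from 86.5 to 120 normalised counts with LIF to 11.4 to 23.8 without over both lines, and fell by 2.61 ± 0.33 (SE, adjusted p = 0.000109) and 2.30 ± 0.23 (SE, adjusted p = 1.03e-06). Itga5, the α chain of the classical fibronectin receptor, fell by 1.25 ± 0.23 (SE, adjusted p = 0.00132) and 0.88 ± 0.12 (SE, adjusted p = 2.85e-05).

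Of the laminin receptor chains, none was called lower in both lines as Lama1 was. Itgb1 rose by a log2 value of 0.67 ± 0.21 (SE, adjusted p = 0.0249) in SunTag Nanog cells, called in 7 of the 11 fits that left out a library (adjusted p 0.000124 to 0.0906), and by 0.45 ± 0.13 (SE, adjusted p = 0.00805) in SunTag NanogOtx cells. Itga6 was not called in SunTag Nanog cells (0.27 ± 0.21 SE, adjusted p = 0.33), and in SunTag NanogOtx cells its value of 0.21 ± 0.08 (SE, adjusted p = 0.0461) lay on overlapping groups, was kept in 3 of 15 such fits and gave an adjusted p of 0.0634 with the clone and replicate number as a block. Itga3 was called in SunTag NanogOtx cells (1.16 ± 0.21 SE, adjusted p = 0.000385) and not in SunTag Nanog cells (0.79 ± 0.36 SE, adjusted p = 0.0963), where its groups overlapped and the block on clone gave 0.000857. Itga7, whose groups overlapped, was called lower in SunTag NanogOtx cells (-0.98 ± 0.34 SE, adjusted p = 0.027), in 11 of the 15 fits that left out a library (adjusted p 0.00593 to 0.0986), and not called in SunTag Nanog cells (adjusted p = 0.485). Itgb4, the β chain that pairs with α6 in a laminin receptor, had 155, 202 and 268 normalised counts with LIF and 109, 139, 115 and 135 without in SunTag NanogOtx cells, separate groups, and fell by 0.75 ± 0.18 (SE, adjusted p = 0.00297). Its groups overlapped in SunTag Nanog cells, where it was not called (-0.49 ± 0.27 SE, adjusted p = 0.17). For the αv receptors the calls fell the other way round. Itgav and Itgb5 were called in SunTag Nanog cells (1.02 ± 0.38 SE, adjusted p = 0.0487, in 3 of 11 fits and with overlapping groups, and 1.05 ± 0.23 SE, adjusted p = 0.00379) but not in SunTag NanogOtx cells (0.31, adjusted p = 0.158, and 0.43, adjusted p = 0.235, or 0.0122 and 0.000917 with the block). Whether the lines differ in these values was not tested.

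Itgb8 and Itga4, named here after their values were seen, stood out by near absence with LIF. Itgb8, the β8 chain of a receptor that activates TGF-β, had 1, 0 and 0 estimated counts in each line with LIF, and 92, 64 and 22 without in SunTag Nanog and 183, 28, 39 and 42 in SunTag NanogOtx cells. It was tested only because of its level in the group without LIF and Dox, so these counts are a description. Itga4, the α4 chain of the receptors for VCAM-1 and fibronectin, averaged 7.41 normalised counts with LIF and 96.4 without in SunTag Nanog cells (3.68 ± 0.43 SE, adjusted p = 7.04e-05) and 8.13 and 49.5 in SunTag NanogOtx cells (3.40 ± 0.56 SE, adjusted p = 0.000142). So α4 rose where its partner β7 and its relative α9 fell.

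The lines share no library, though their clones are related, and each serves as a second measurement of the other. Of the 19 genes higher in SunTag Nanog cells 18 were tested in SunTag NanogOtx cells, where all 18 had a positive log2 fold change and 13 were called higher (72.2%, against 76.0% of all genes chosen the same way). Itgb8, among the 18, was tested in both lines only through -LIF/-Dox, which favours a rise. These counts are in that part a description. All 19 lower genes were negative there, and 14 were called lower (73.7%, against 75.2%). The members were thus recovered about as often as genes in general.

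**Figure D3:**
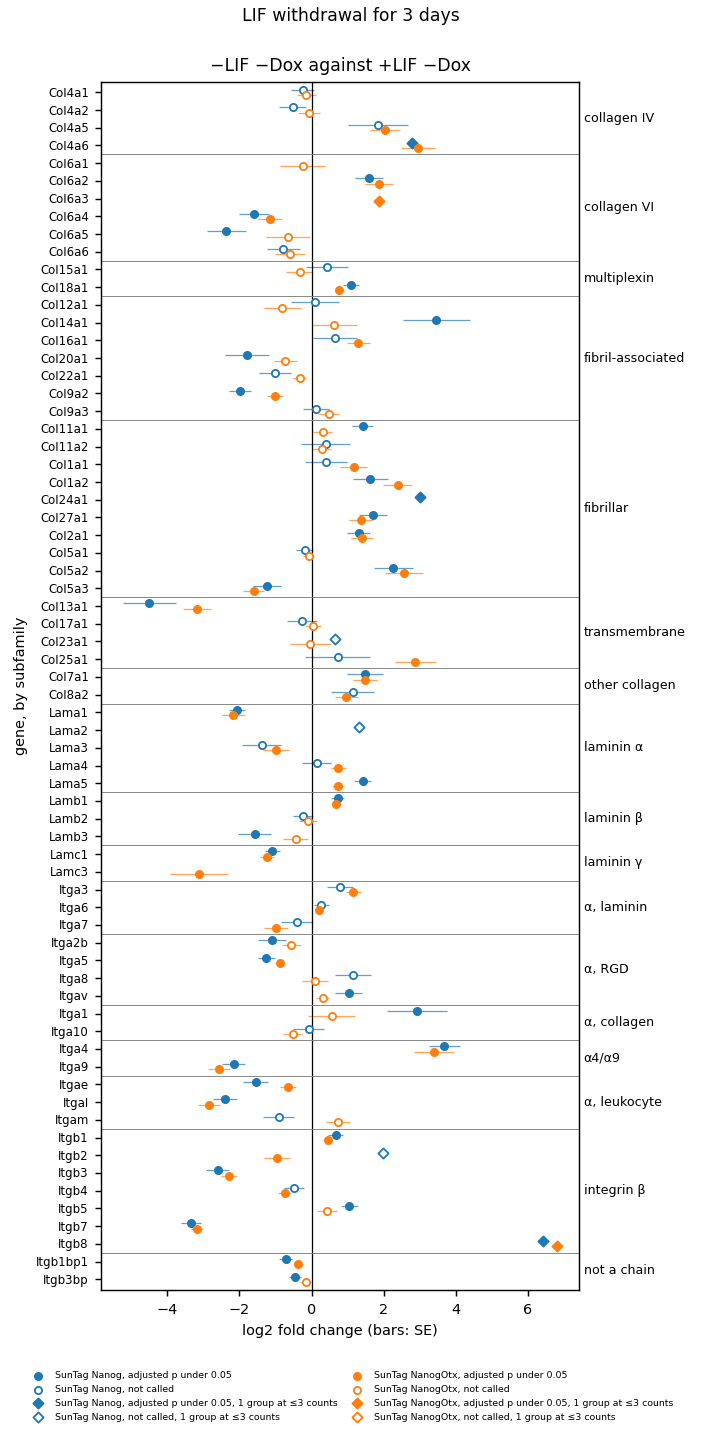
Log2 fold change (x axis, bars SE) of the tested genes (y axis, by subfamily) for -LIF/-Dox against +LIF/-Dox in SunTag Nanog (blue) and SunTag NanogOtx cells (orange). Filled symbols have an adjusted p under 0.05, and diamonds are genes at 3 or fewer counts in every library of a group, whose fitted value depends on the prior count. Itgb7 and Lama1 lie left of 0 and Lama5, Col5a2 and Itga4 right of it in both lines.

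Marker genes moved with LIF withdrawal over the same libraries. The summed level of 9 naive ES cell markers was 122066 to 134959 normalised counts in the SunTag Nanog libraries with LIF and 34065 to 37936 without (92579 to 113018 and 27033 to 35702 leaving out Nanog), and that of the formative and primed markers 6954 to 10280 and 80800 to 99319. Neural markers went from 189.8 to 369.5 with LIF to 1431 to 3949 without, and mesoderm and fibroblast markers from 396.3 to 766.0 to 1083 to 1277, while extraembryonic endoderm markers stayed in overlapping ranges (1252 to 3109 and 2334 to 2616). Trophoblast markers went from 1403 to 2132 with LIF to 677.4 to 904.8 without. Single genes within these lists went opposite ways. Tfap2c, a trophoblast marker, fell from a mean of 1400 to 161, while Eomes rose from 127 to 425. Tagln, a mesoderm and fibroblast marker, rose from 28.2 to 549, while Pdgfrb fell from 166 to 87.9. Of the endoderm markers Hnf4a, Gata6 and Pdgfra were called lower, though the summed ranges overlapped. In SunTag NanogOtx cells Dab2, of the same list, was called higher, from a mean of 386 to 1338. Hnf4a (183 to 24.2) and Pdgfra (118 to 53.4) were called lower there. The summed endoderm ranges overlapped in that line too (855.7 to 2407 with LIF and 1415 to 3409 without). The part of these markers' cells in the matrix genes' changes was not tested.

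Other genes of the same system were counted in lists by known function. Of the other matrix proteins, 10 of 19 tested were higher and 4 lower in SunTag Nanog cells, with Nid1, the nidogen that links laminin to collagen IV, lower by 3.99 ± 0.22 (SE, adjusted p = 7.27e-07). The same list had 8 of 21 higher and 5 lower in SunTag NanogOtx cells, with Nid1 lower by 4.27 ± 0.16 (SE, adjusted p = 1.44e-10). Of the collagen-modifying enzymes 4 of 22 were higher and 6 lower, then 7 and 5 of 21, with Pxdn, which crosslinks collagen IV, higher by 2.77 ± 0.25 (SE, adjusted p = 1.13e-05) and 2.41 ± 0.20 (SE, adjusted p = 1.66e-07), and Pcolce, which enhances procollagen processing, lower by 4.26 and 3.87. The integrin adhesion complex had 7 higher and 7 lower of 21, then 9 and 6, with Fermt1 and Zyx, 2 adaptors at integrin tails and focal adhesions, higher by 4.88 and 3.62 in SunTag Nanog cells (adjusted p = 2.61e-06 and 0.000484). Matrix proteases and their inhibitors had 6 higher and 1 lower of 12, then 5 and 2, and the non-integrin matrix receptors 7 and 3 of 17, then 8 and 2.

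The next question is what Dox, which induces Nanog together with the SunTag proteins, did in the absence of LIF. A small set of receptors rose in both lines: Itga9, Itga1, Itgb3, Itgb7 and Itgal, and with them the collagens Col5a3 and Col14a1, the last of which entered the test in SunTag NanogOtx cells only through the group with Dox. Neither Lama1 nor Lama5 was called in either line. In SunTag Nanog cells 7 of 66 tested genes were higher with Dox and 0 lower, beside 3.6% and 1.54% of all genes tested. In SunTag NanogOtx cells, in which Otx2 was induced as well, 27 of 67 were higher and 1 lower, beside 11.2% and 6.15%. The members' median log2 fold change was 0.10 and 0.64, against 0.002 and -0.007 over all genes. In SunTag NanogOtx cells Col6a3, like Col14a1, was tested only through -LIF/+Dox, which favours a rise with Dox. Itgb8 in both lines and Col24a1 in SunTag Nanog cells were tested only through -LIF/-Dox, which favours a fall. Counts and medians that hold these genes are in that part a description. With the clone as a block the first count was 13, with 11 higher and 2 lower, and DESeq2 gave 10 higher and 1 lower. At an unadjusted p under 0.05 there were 20 members, 13 of them higher. Of all 15624 genes 2896 had such a p, the block called 866 higher and 509 lower, and DESeq2 878 and 631.

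Itga9 had 107, 141 and 56.5 normalised counts without Dox and 1205, 1114 and 727 with it in SunTag Nanog cells, and 154, 91.1, 60.8 and 61.2 against 717, 922, 709 and 646 in SunTag NanogOtx cells. Every library with Dox also lay above all of the libraries with LIF and without Dox of the same line (386 to 552 and 435 to 640). The log2 fold change was 3.35 ± 0.34 (SE, adjusted p = 0.000246) and 3.02 ± 0.29 (SE, adjusted p = 9.27e-06). Itga1, the α1 chain of a collagen receptor (chr13:115748287-115892172), had 75.7, 110 and 24.6 normalised counts without Dox and 920, 1089 and 470 with it in SunTag Nanog cells, and 40.8, 44.9, 12.5 and 14.5 against 292, 510, 170 and 156 in SunTag NanogOtx cells. The groups were separate, and it rose by 3.59 ± 0.64 (SE, adjusted p = 0.00853) and 3.33 ± 0.55 (SE, adjusted p = 0.00081). The clones differed in level: in -LIF/+Dox cells the C1 libraries held 920 to 1089 and 292 to 510 and the C2 libraries 470 and 156 to 170.

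Col14a1, a fibril-associated collagen that binds decorin (chr15:55139305-55352358), had 60.3, 177 and 16 normalised counts without Dox and 1354, 1598 and 501 with it in SunTag Nanog cells, and 39.1, 39.6, 12.5 and 7.79 against 573, 546, 176 and 146 in SunTag NanogOtx cells. Here too the C1 libraries were the higher ones in each group without LIF. It rose by 3.81 ± 0.70 (SE, adjusted p = 0.00934) in SunTag Nanog cells. The estimate in SunTag NanogOtx cells was 3.85 ± 0.53 (SE), given as a description because -LIF/+Dox was the only group through which Col14a1 passed the filter there. With LIF its level was 5.03 to 24.2 in all SunTag libraries, Dox or not.

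Itgb7 and Itgb3 rose towards their levels with LIF without reaching them. Itgb7 had 166, 141 and 122 normalised counts with Dox in SunTag Nanog cells and 210, 297, 233 and 255 in SunTag NanogOtx cells, above all libraries without Dox (44.0 to 91.0 and 80.6 to 114) and below all with LIF (409 to 945). It rose by 1.11 ± 0.26 (SE, adjusted p = 0.0327) and 1.44 ± 0.15 (SE, adjusted p = 1.86e-05). Itgb3 had 64.3, 55.7 and 51.5 with Dox in the first line and 32.6, 46.7, 62.2 and 44.7 in the second, again above all without Dox (11.4 to 22.1 and 16.7 to 23.8), and rose by 1.75 ± 0.32 (SE, adjusted p = 0.00932) and 1.27 ± 0.21 (SE, adjusted p = 0.000981). Itgal, the αL chain of a leukocyte receptor, rose by 1.43 ± 0.33 (SE, adjusted p = 0.0277) and 1.45 ± 0.29 (SE, adjusted p = 0.00313), and Col5a3 by 1.43 ± 0.37 (SE, adjusted p = 0.0456) and 1.93 ± 0.28 (SE, adjusted p = 0.000255).

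The calls in SunTag Nanog cells leaned on 1 library. Without the -LIF/-Dox library C1-1 only Itga9 was called, while Itga1, Itgb3 and Col14a1 had adjusted p values of 0.0524, 0.0543 and 0.0628. Without -LIF/-Dox C1-2, -LIF/+Dox C1-1 or -LIF/+Dox C1-1b 4 genes were called, and without +LIF/-Dox C1-1 there were 11. Over these fits Itgb7 was called in 7 of 11 (adjusted p 0.019 to 0.16), Itgal in 6 (0.0152 to 0.144) and Col5a3 in 3 (0.034 to 0.191). The SunTag NanogOtx count was steadier, since 24 to 28 genes were called whichever library was left out. All 7 genes called in SunTag Nanog cells were called higher in SunTag NanogOtx cells too, Col14a1 with the limit given above, where 85.7% of all genes chosen the same way were.

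The main laminin chains were mostly not called. Lama1 had 832, 615 and 569 normalised counts with Dox in SunTag Nanog cells and 447, 786, 554 and 1098 in SunTag NanogOtx cells, within the range of the libraries without Dox in the second line and overlapping it in the first, with log2 fold changes of -0.09 ± 0.21 (SE, adjusted p = 0.893) and -0.08 ± 0.30 (SE, adjusted p = 0.889). Its share of the laminin α level was 17.74 ± 2.51% (SD, n = 3) and 12.02 ± 5.17% (SD, n = 4). Lama5 had 3726, 3273 and 3413 with Dox in SunTag Nanog cells, below all 3 libraries without Dox, but was not called (-0.82 ± 0.24 SE, adjusted p = 0.0799, or 0.0406 with the clone as a block). In SunTag NanogOtx cells it gave -0.20 ± 0.16 (SE, adjusted p = 0.433). Lamc1 was called in SunTag NanogOtx cells alone, with 7167, 8845, 11526 and 11717 normalised counts with Dox and groups that overlapped (0.64 ± 0.18 SE, adjusted p = 0.0219, kept in 11 of 15 fits, 0.00782 to 0.0644). The SunTag Nanog value was 0.55 ± 0.21 (SE, adjusted p = 0.169, or 0.0155 with the block).

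SunTag NanogOtx cells added 20 genes to the 7 shared ones. Lamb3, a β chain of epithelial laminin, rose by 1.44 ± 0.31 (SE, adjusted p = 0.00489), and Lama4, an α chain of vascular and muscle laminins, by 1.10 ± 0.18 (SE, adjusted p = 0.000697). Itga5 rose by 0.70 ± 0.11 (SE, adjusted p = 0.000679), with 1264, 1480, 1450 and 1732 normalised counts with Dox against 899, 878, 905 and 1068. Of the fibril-associated collagens 5 of 7 tested were higher, among them Col14a1, which was tested only through -LIF/+Dox and counts as a description. Of the transmembrane collagens 3 of 4 were higher, and of collagen IV 0 of 4. DESeq2 called none of these 4 chains either, with adjusted p values of 0.478, 0.773, 0.235 and 0.0888 for Col4a1, Col4a2, Col4a5 and Col4a6. Col4a6 alone had an unadjusted p under 0.05 by edgeR (0.0143), and it was called with the block (adjusted p = 0.0213). The only gene called lower was Itgb8, with means of 44.3 normalised counts without Dox and 16.7 with it. In SunTag Nanog cells, where it was not called, its means were 61.6 and 17.3. In both lines it was tested only through the group without Dox, which favours a fall from that group, and the values are a description.

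The Dox effect was set against LIF withdrawal in the other line, with no library in common. Most values were opposite in sign, for the members and for all genes alike. Of 19 genes lower without LIF in SunTag NanogOtx cells 18 were tested in SunTag Nanog cells, where Dox gave 17 positive values (94.4%, against 85.4% of all genes chosen the same way) and 5 calls (27.8%, against 12.5%). Of the 19 lower in SunTag Nanog cells 15 were positive with Dox in SunTag NanogOtx cells (78.9%, against 74.9%) and 13 were called (68.4%, against 28.7%). Of 21 members that had risen without LIF 5 were positive in SunTag Nanog cells (23.8%, against 14.2%) and 0 were called lower by edgeR, against 6.09% of all genes. Of 18 such members in SunTag NanogOtx cells 7 were positive (38.9%, against 26.6%), with 1 called lower (5.56%, against 16.4%) and 2 called higher (11.1%, against 2.56%). The 1 called lower was Itgb8, which was tested only through -LIF/-Dox and counts as a description.

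Markers moved here too. The naive markers summed to 34065 to 37936 normalised counts without Dox and 94152 to 105790 with it in SunTag Nanog cells, and to 50441 to 58386 and 98795 to 108667 in SunTag NanogOtx cells, and the formative and primed markers to 80800 to 99319 and 40558 to 47467, then 98962 to 120599 and 68113 to 76746. The naive list holds Nanog, which the guide switches on, and the other 8 markers summed to 27033 to 35702 without Dox and 47190 to 51059 with it in SunTag Nanog cells and to 44114 to 56413 and 60197 to 72996 in SunTag NanogOtx cells. Neural markers ran from 1431 to 3949 without Dox and from 868.6 to 1523 with it in SunTag Nanog cells, and from 1354 to 3836 and 908.8 to 1782 in SunTag NanogOtx cells. Trophoblast markers were higher with Dox in both lines, at 677.4 to 904.8 and 1088 to 1536, then 473.4 to 799.1 and 829.2 to 961.6. Extraembryonic endoderm markers went from 2334 to 2616 without Dox to 1442 to 1655 with it in SunTag Nanog cells and overlapped in SunTag NanogOtx cells (1415 to 3409 and 915.8 to 2239), and mesoderm and fibroblast markers overlapped in both (1083 to 1277 and 696.1 to 1166, then 910.4 to 1648 and 1090 to 1783). Their part in the changes of matrix genes was not tested. In the other lists few genes were called in SunTag Nanog cells: 3 of 19 other matrix proteins were higher, among them Npnt, the ligand of integrin α8β1 (1.82 ± 0.38 SE, adjusted p = 0.0173), and Nid1 (0.97 ± 0.20 SE, adjusted p = 0.0173), and 1 of 21 adhesion complex genes, Tns3 (1.71 ± 0.40 SE, adjusted p = 0.0312).  In SunTag NanogOtx cells 7 of 21 other matrix proteins were higher and 2 lower, 4 of 21 enzymes were higher, and of 21 adhesion complex genes 3 were higher and 2 lower.

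Whether the 2 lines respond differently to Dox without LIF was tested as a difference of the 2 Dox effects over all 26 SunTag libraries. None of 69 tested members was called by edgeR, beside 0.0308% higher and 0.0% lower of 16210 genes. DESeq2 and the fit with the block called 0 as well. At an unadjusted p under 0.05 there were 7, all with the larger effect in SunTag NanogOtx cells and all collagens (Col6a1, Col6a2, Col15a1, Col1a1, Col24a1, Col5a1 and Col17a1), beside 923 of all genes. Col24a1 passed the filter only through SunTag Nanog -LIF/-Dox, which favours a larger effect in SunTag NanogOtx cells. Its place among these genes is a description. Itga9 differed by -0.36 ± 0.43, Itga1 by -0.30 ± 0.84 and Itgb7 by 0.28 ± 0.28 (SE), which leaves room for differences within about 2 SE of these values. The larger number of calls in SunTag NanogOtx cells is thus no tested difference between lines, and those cells also had more libraries. The second guide and the set of libraries cannot be told apart.

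**Figure D4:**
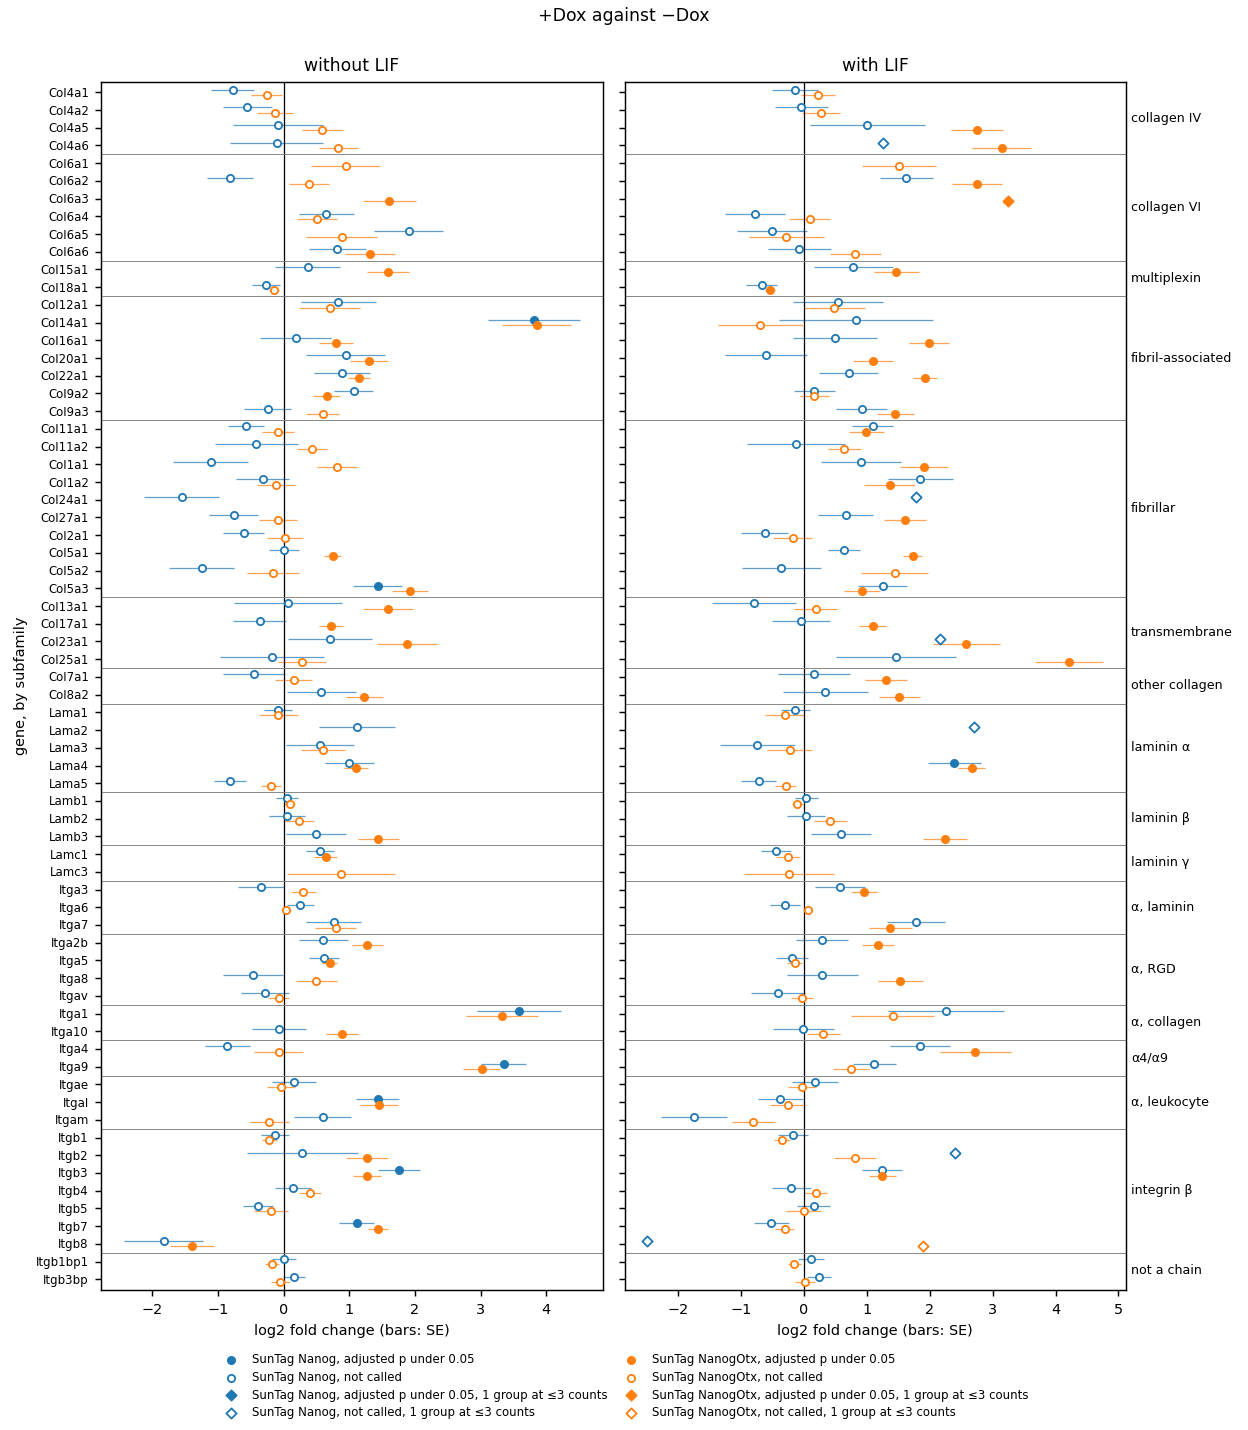
Log2 fold change (x axes, bars SE) of the tested genes (y axis, by subfamily) for +Dox against -Dox, without LIF on the left and with LIF on the right, in SunTag Nanog (blue) and SunTag NanogOtx cells (orange). Filled symbols have an adjusted p under 0.05, and diamonds are genes at 3 or fewer counts in every library of a group, whose fitted value depends on the prior count. Itga9, Itga1 and Col14a1 lie above 3 in both lines without LIF, and Lama4 above 2 in both lines with LIF.

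The effect of Dox was also measured with LIF present. In SunTag Nanog cells 1 of 66 tested genes was higher with Dox, Lama4, and 0 were lower by edgeR, beside 0.422% and 0.141% of all genes tested. With the second guide, 28 of 67 were higher and 1 lower, beside 12.9% and 10.0%. Of the SunTag Nanog values 17 had an unadjusted p under 0.05, 14 of them higher with Dox, and DESeq2 called 6 higher and 1 lower and the fit with the block 2 higher. Of all 15624 genes 2227 had such a p, DESeq2 called 322 higher and 265 lower, and the block 175 and 118. Most of the 28 in SunTag NanogOtx cells were collagens: 20 of 34 tested were higher, from each collagen subfamily, and the median of the 34 was 1.34 on the log2 scale. Tested only through +LIF/+Dox, which favours a rise with Dox, were Col6a1, Col25a1, Itgb2 and Lamc3 in SunTag NanogOtx cells. In SunTag Nanog cells these were Col12a1, Col15a1, Col23a1, Col25a1 and Itgb2. Counts and medians that hold them are in that part a description. The members' median was 0.17 and 0.81, against -0.016 and -0.015 over all genes, or 0.16 and 0.75 with genes at the floor set to it.

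Lama4 (chr10:38685321-38829994) had 37.5, 28.5 and 13.7 normalised counts without Dox and 140 and 132 with it in SunTag Nanog cells, and 16.8, 16.4 and 18.5 against 107, 93.5, 120 and 106 in SunTag NanogOtx cells. The groups were separate in both lines. It rose by 2.39 ± 0.42 (SE, adjusted p = 0.0337), kept in 2 of 11 fits that left out a library (adjusted p 0.0292 to 0.127), and by 2.67 ± 0.22 (SE, adjusted p = 7.7e-06), kept in 15 of 15. In 44iN cells, where Dox drives the Nanog transgene, Lama4 had 14.4 and 8.87 normalised counts after 24 h without Dox and 57.5 and 57.5 with it, but was not called (2.36 ± 0.52 SE, adjusted p = 0.357). Against Lama1 and Lama5 it remained a minor α chain, at 2.57 ± 0.48% of the α chain level per kb at its highest (SunTag Nanog with LIF and Dox, SD, n = 2).

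Col5a1, a chain of collagen V (chr2:27741945-27895034), had 246, 288 and 292 normalised counts without Dox and 959, 755, 1024 and 847 with it in SunTag NanogOtx cells. This gap was far wider than the spread within the groups (1.73 ± 0.15 SE, adjusted p = 9.38e-06). The SunTag Nanog libraries had 241, 359 and 242 against 343 and 531, overlapping groups (0.63 ± 0.26 SE, adjusted p = 0.295). Col22a1, found at tissue junctions, had 46.3, 55 and 32.4 without Dox and 182, 152, 194 and 175 with it in SunTag NanogOtx cells (1.92 ± 0.19 SE, adjusted p = 3.44e-05), and Col6a2, of the beaded filaments, 16.1, 12.5 and 23.1 against 97.1, 72.4, 138 and 106 (2.75 ± 0.40 SE, adjusted p = 0.000352). Their groups were separate as well. The minor collagen IV chains rose with them, Col4a5 by 2.75 ± 0.41 (SE, adjusted p = 0.000444) and Col4a6 by 3.15 ± 0.47 (SE, adjusted p = 0.000444), while Col4a1 and Col4a2 were not called (0.23 and 0.28, adjusted p = 0.575 and 0.543, or 0.0463 and 0.0243 with a block that numbers 1 library as its column does). Col18a1 was the 1 gene to fall, with 8454, 9225 and 7624 without Dox and 6236, 5801, 5772 and 5208 with it (-0.54 ± 0.08 SE, adjusted p = 0.000431).

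Lamb3 rose in SunTag NanogOtx cells, from 73.8, 36.8 and 64.8 normalised counts to 237, 197, 341 and 290 (2.24 ± 0.35 SE, adjusted p = 0.000603). Among receptors Itgb3 rose in these cells by 1.25 ± 0.21 (SE, adjusted p = 0.00108), from 86.5 to 120 normalised counts without Dox to 193 to 236 with it. Itgb3 in SunTag Nanog cells had 115, 98.9 and 101 against 311 and 194, separate groups with the same estimate, and was not called (1.25 ± 0.32 SE, adjusted p = 0.112, and 0.0104 by DESeq2). Itga3 rose by 0.96 ± 0.21 (SE, adjusted p = 0.00544) and Itga7, the laminin receptor chain of muscle, by 1.37 ± 0.34 (SE, adjusted p = 0.0098, or 0.0746 without the +LIF/-Dox library C1ON3-2) in SunTag NanogOtx cells. Itga9 gave 0.75 ± 0.29 (SE, adjusted p = 0.0721) there (0.00228 with the block) and 1.12 ± 0.34 (SE, adjusted p = 0.163) in SunTag Nanog cells (0.0232 with the block), with separate groups in both. Lama1, Lama5, Lamb1 and Lamc1 were called in neither line, though Lamc1 in SunTag NanogOtx cells, with -0.26 ± 0.19 (SE, adjusted p = 0.354), gave 0.00352 with the block.

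Of the 28 genes higher in SunTag NanogOtx cells 27 were tested in SunTag Nanog cells, with only 2 libraries with Dox, and 25 had a positive value there, of which 1 was called (3.7%, against 2.74% of all genes chosen the same way). Mesoderm and fibroblast markers were higher as well: 7 of the 10 were tested in SunTag NanogOtx cells and 3 were called higher, and their summed level went from 407.5 to 546.2 normalised counts without Dox to 1040 to 1237 with it, and in SunTag Nanog cells from 396.3 to 766.0 to 908.3 to 1237. Their part in the collagen changes was not tested. The other lists in SunTag NanogOtx cells had 7 of 21 matrix proteins higher and 3 lower, with Fbn1, the main fibrillin of microfibrils, higher by 1.87 ± 0.28 (SE, adjusted p = 0.000471), 6 of 21 modifying enzymes higher, 7 of 12 proteases and inhibitors higher and 1 lower, and 5 of 17 other receptors higher, with the heparan sulphate carriers Sdc3 and Sdc2 up by 2.37 and 1.23 (adjusted p = 0.00042 and 0.00202). Of the 21 adhesion complex genes 3 were higher. Whether the 2 lines differ in their Dox effect with LIF was not tested.

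The Dox effect without LIF was compared with that with LIF in SunTag Nanog cells by an interaction term. Of 66 tested members 1 had a larger Dox effect without LIF and 2 a smaller one, beside 1.32% and 0.608% of all genes. The count was 10 with the clone as a block and 9 by DESeq2. Of all 15624 genes the block called 451 larger and 258 smaller, and DESeq2 513 and 364. Itga9 had the larger effect, by 2.23 ± 0.48 (SE, adjusted p = 0.0391, called in 3 of 11 fits that left out a library). Col6a2 had the smaller one, by -2.45 ± 0.55 (SE, adjusted p = 0.0456, 1 of 11), with 13.4, 16.8 and 20.0 against 33.6 and 70.9 normalised counts with LIF and 55.4, 49.1 and 51.6 against 25.1, 25.7 and 36.1 without. Itga4 did so too, by -2.70 ± 0.59 (SE, adjusted p = 0.0407, 3 of 11). Itgb7, whose estimate was negative with LIF and positive without, gave 1.62 ± 0.39 (SE, adjusted p = 0.0613, or 0.037 with the block), and Col14a1 and Itga1 gave 2.98 ± 1.46 and 1.33 ± 1.18 (SE, adjusted p = 0.369 and 0.644).

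**Figure D5:**
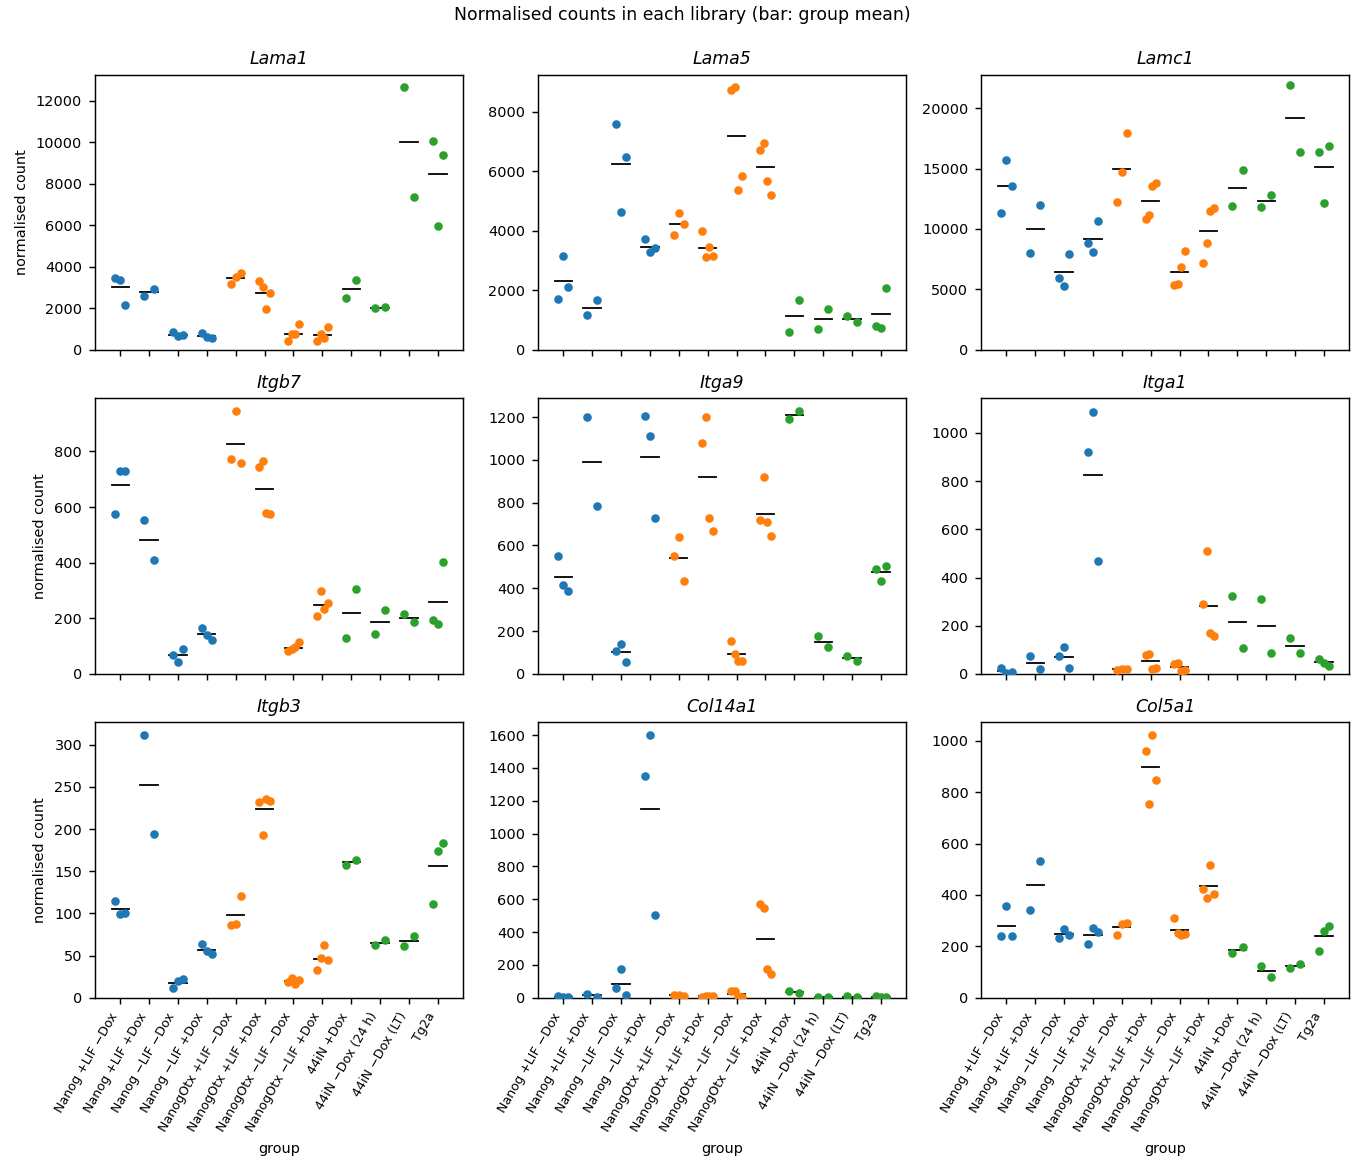
Normalised counts (linear y axes from 0, 1 scale for each gene) of 9 genes in each library (points) with the group mean (bars), by group, in SunTag Nanog (blue), SunTag NanogOtx (orange), and 44iN and Tg2a libraries (green). Itga9 holds 386 to 640 with LIF and without Dox, 56.5 to 154 without either and 646 to 1205 without LIF and with Dox in the SunTag libraries, and Lama1 stays at 1235 or below in every SunTag library without LIF.

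44iN cells with Dox, which drives the Nanog transgene, were compared with 44iN cells 24 h after Dox removal, with 2 libraries in each group. Dox itself and the transgene cannot be told apart here. Of 47 tested members edgeR called 0, beside 0.0% higher and 0.0% lower of 14376 genes. At an unadjusted p under 0.05 there were 8 members, 7 of them higher with Dox, and 1023 of all genes. DESeq2 called 1 member, Itga9, and 113 genes higher and 28 lower. Itga9 had 1189 and 1229 normalised counts with Dox and 175 and 127 after 24 h without it (3.09 ± 0.29 SE, unadjusted p = 5.37e-05, adjusted p = 0.156 by edgeR and 3.01e-12 by DESeq2). Its groups were far apart, and no other member was called by either tool. Itgb3 had 158 and 163 with Dox and 62.4 and 68.0 without (1.39 ± 0.41 SE, adjusted p = 0.508), and Col14a1, with 39.6 and 28.0 against 4.80 and 2.96, was not called either (adjusted p = 0.317). The members' median was 0.22, against 0.042 over all genes.

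Long-term culture of 44iN cells without Dox was compared with Tg2a cells, 2 libraries against 3. The study's methods state G418 selection for 44iN cells kept long-term without Nanog, and state none for Tg2a cells. Selection, cell line and loss of Nanog cannot be told apart in this comparison. Of 55 tested members 3 were higher and 7 lower in the 44iN cells, beside 3.35% and 5.26% of 14937 genes, with a median of -0.42 against -0.047. Itga9 had 83.4 and 62.0 normalised counts in long-term 44iN cells and 492, 435 and 503 in Tg2a cells, groups far apart (-2.79 ± 0.26 SE, adjusted p = 0.00259). Itgb3 (-1.30 ± 0.32 SE, adjusted p = 0.0459) and Col6a4 (-1.55 ± 0.28 SE, adjusted p = 0.018) were lower, and Lama3 was higher (1.59 ± 0.30 SE, adjusted p = 0.02). Itga4, which pairs like Itga9 with β1, was higher by 1.71 ± 0.32 (SE, adjusted p = 0.0196). Col1a1 and Col1a2, the chains of collagen I, were lower too (-4.03 ± 0.95 SE, adjusted p = 0.038, and -3.18 ± 0.68 SE, adjusted p = 0.0291), but the Tg2a libraries were uneven, with 21.2, 195 and 213 normalised counts of Col1a1 and 32.4, 159 and 112 of Col1a2. Summed mesoderm and fibroblast markers ran from 654.3 to 1734 in those 3 libraries, and their part in the result was not tested. None of these calls held in every fit that left out a library. Without either long-term library 0 members were called, and without Tg2a 1, 2 or 3 the number was 15, 1 or 14.

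The main laminin and collagen IV chains were not among the calls here. Lama1 had 12659 and 7357 normalised counts in long-term 44iN cells and 10088, 5978 and 9408 in Tg2a cells (0.16 ± 0.28 SE, adjusted p = 0.745), overlapping groups. Both exceeded every SunTag library (419 to 3708) and the 44iN libraries with Dox or after 24 h without it (2001 to 3361). Col4a1 followed the same order, at 5034 and 3510, and 4467, 2888 and 5645, against 408 to 799 in the other 44iN libraries and 733 to 3106 in the SunTag libraries, the lowest Tg2a library being below the highest SunTag one. Lama1 was 87.87 ± 1.77% (SD, n = 2) and 87.76 ± 4.51% (SD, n = 3) of the α chain level in these 2 groups. The summed level of the extraembryonic endoderm markers was also high there, 14348 to 26124 and 12786 to 21501 normalised counts, against 432.3 to 3409 in all other libraries, and its part in the levels of Lama1 and Col4a1 was not tested. These levels are set across cell lines and are given as a description.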

How the data were processed

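RNA-seq libraries were made with the TruSeq stranded mRNA kit from polyA RNA. Per the labels and the study's methods, the authors used CASAVA 1.8, aligned reads to mm9 with STAR, estimated counts per gene with RSEM and rounded them. The authors deposited these estimated counts (expected counts) and a second table in which the counts are divided by DESeq2 size factors, a signal called normalised counts here. RSEM was run with a strand setting. Versions of STAR and RSEM are not given in the sources used here. ChIP-seq, ATAC-seq and 2i samples were not analysed here.

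The deposited estimated counts were tested with edgeR 4.0.16 in R 4.3.3 (quasi-likelihood F test, TMM, adjusted p by Benjamini-Hochberg over all genes tested, threshold 0.05), with 1 model for each SunTag line over its 4 groups, 1 for all 26 SunTag libraries and 1 for each 44iN comparison. A gene was tested where all libraries of 1 or more groups of the model reached 10 normalised counts. Alternatives were DESeq2 1.42.0, its size factors in edgeR, other filters, a replicate block and each library left out. The fits were tested on simulated data. Replicate pairs differed beyond sampling noise (chi-square per gene 10.7 to 258). Nothing says that libraries of 1 clone came from separate cultures, so p-values measure the spread between these libraries, which may be technical.

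The block was the clone in SunTag Nanog cells and the clone with its number in SunTag NanogOtx cells, since the labels name the clones: deviations from the group means correlated at a mean r of 0.148 within a block and -0.143 between blocks in the first, and at 0.299 and -0.10 in the second. The SunTag NanogOtx +LIF/-Dox library of clone C2ON3 has the number 1 in its title and 2 in its column name. The title's number was used, and the column's number was an alternative chosen after seeing the data.

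Members and gene lists were chosen with earlier results of these data known. Named were the called members that averaged 100 normalised counts or more in their higher group and, whatever their values, the main basement membrane chains and their receptors (Col4a1 to Col4a6, Lama1, Lama5, Lamb1, Lamb2, Lamc1, Itga3, Itga5, Itga6, Itgav, Itgb1, Itgb3, Itgb5). Genes named outside this rule were chosen after their values were seen. One member is not reported here by name or in the plots, and remains in the counts and medians. Where a symbol labels 2 genes, both were counted in its list. Levels per kb used the exon union of the NCBIM37 annotation, and promoter windows came from RefSeq (GRCm38.p6), which matched 62 of the 86 genes.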

Additional observations from a re-analysis of the deposited data

Results flagged for a closer look

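In SunTag NanogOtx groups of 4 libraries, 7 of 142 tests set 1 library apart from the other 3 by Dixon's criterion, about the 1 in 20 that chance gives. Itgb3 had 193 normalised counts in +LIF/+Dox C1ON3-2, against 232 to 236 in the others. In the -LIF/-Dox group Col5a1 had 310.3 in C1ON3-1 (others 244 to 252), Itga5 had 1068 in C2ON3-2 (others 878 to 905), and Itgb3bp, a nuclear protein that binds the β3 tail, had 316 in C1ON3-2 (others 425 to 442). In the -LIF/+Dox group Col27a1 had 62.5 in C2ON3-2 (others 108 to 112), Lama4 had 73.6 in C2ON3-1 (others 56.0 to 57.8), and Itgb1bp1 had 284 in C2ON3-1 (others 334 to 338). The libraries set apart differed from gene to gene.

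The Dox effect in SunTag Nanog cells differed between the absence and the presence of LIF for 3 genes by edgeR's interaction test: Itga9, with a difference of 2.23 on the log2 scale, Col6a2, with -2.45, and Itga4, with -2.70. Each was called in 3 or fewer of the 11 fits that left out a library.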

How the results depend on the processing

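Of the members called by rule, none changed direction under any alternative. DESeq2 size factors and the 2 other filters lost 1, 4 and 4 of 98 calls, DESeq2 lost 0, and the fits with a library left out lost 124 and kept 1134. With the replicate block 2 were lost (Itgb3bp without LIF in SunTag Nanog cells, adjusted p = 0.056, and Itga6), and the block changed no other of these calls. With the column's number for 1 SunTag NanogOtx library in the block, 56 of that line's named calls held and Itga6 did not (adjusted p = 0.0606), and 48, 37 and 40 members were called for LIF withdrawal, Dox without LIF and Dox with LIF. For Dox without LIF in SunTag Nanog cells 7 members were called, against 11 by DESeq2, 13 with the block and 1 to 11 with a library left out. For Dox with LIF in these cells the counts were 1, 7, 2 and 0 to 2, and for the difference of both 3, 9, 10 and 0 to 3. LIF withdrawal gave 38 (29 to 42 with a library left out) in SunTag Nanog and 41 (35 to 41) in SunTag NanogOtx cells, where Dox gave 28 (24 to 28) without LIF and 29 (23 to 33) with it. The difference between lines stayed at 0 (0 to 0). For 44iN with and without Dox the count was 0, against 1 by DESeq2, 2 without a filter, 11 with the replicate block and 1 to 16 with a library left out. For long-term 44iN against Tg2a it was 10, against 17 by DESeq2, 17 without a filter, 24 with the block and 0 to 15. The block called more of all genes too. For 44iN with and without Dox it called 1279 higher and 633 lower of 14376 genes, against 0 and 0 without it. For long-term 44iN against Tg2a it called 2195 and 2645 of 14937 genes, against 501 and 785. The larger member counts with the block are therefore not read as a trait of these genes. In these last comparisons the replicates share only a number. Deviations of same-numbered libraries correlated at 0.492 in the first, over 2 pairs, and at 0.134 in the second. Fits with a library left out that leave 1 library in a group assume that it varies like the others. Where a count moved, the cause was not tested. Col4a5, Col4a6 and Itgb8 are limited by depth, with few reads in cells with LIF.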
